A study of Homo sapiens with 12 samples.

Results

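C4.2B cells given the EZH2 inhibitor GSK126 (the GSK libraries) were compared with cells given vehicle (the DMSO libraries), over all gene symbols, to describe which silent genes turned on and which expressed genes fell. The comparison holds 6 of the 12 libraries of the series, 3 a side. C4.2B is an established human line of castration-resistant prostate cancer, and all arms come from this single line. Cells of the GSK arm were held in 5 µM GSK126 for 6 days and then treated with it for 24 h, and cells of the DMSO arm received vehicle throughout. The other arms were the PI3K inhibitor GDC-0941 at 0.5 µM for 24 h (GDC) and both agents, with the same GSK126 pretreatment (COMBO). All arms were treated in medium with 10% charcoal-stripped serum, so every library here, vehicle included, comes from cells low in androgen. Polyadenylated RNA was sequenced from triplicate plates, and nothing says that replicates A, B and C were separate cultures beyond that, so p-values measure the spread between these plates.

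EZH2 is the catalytic subunit of Polycomb repressive complex 2 (PRC2), which methylates histone H3 at lysine 27. Genes that carry the trimethylated mark over their promoters are mostly silent, and they include many developmental and tissue-restricted genes. GSK126 competes with the methyl donor in the catalytic pocket of EZH2, and the mark is lost gradually as cells divide, which is the reason for a pretreatment of days. EZH2 itself is a target of the E2F factors and is abundant in dividing cells.

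The libraries held 8785218 to 44437751 counts in genes, and the deepest was a DMSO library. Levels are given as CPM, counts relative to the library's total after TMM scaling. A single count was worth 0.0241 to 0.105 CPM in the DMSO libraries and 0.0790 to 0.110 CPM in the GSK libraries. The share of reads outside genes was 13.7% to 14.6% in DMSO and 18.47% to 18.9% in GSK, without overlap, and its part in the results below was not tested. Luminal prostate markers summed to 4648 to 4814 CPM in DMSO and 5822 to 6259 CPM in GSK, with all 14 detected. Basal markers summed to 0.995 to 1.9998 and 1.36 to 1.66 CPM, and immune markers to 5.47 to 6.03 and 7.69 to 10.99 CPM, with 4 of 11 at 0. Fibroblast markers summed to 16.2 to 18.4 CPM in DMSO and 37.4 to 48.4 CPM in GSK, and endothelial markers to 3.37 to 4.53 and 7.98 to 9.34 CPM. The defining genes KRT5, PTPRC and PECAM1 had at most 5 counts in all in either arm, and the higher fibroblast sum was mostly COL1A1 (10.5 ± 0.707 CPM in DMSO and 30.3 ± 6.24 in GSK, SD, n = 3).

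EZH2 transcripts stood at 105.4, 107 and 102 CPM in DMSO and at 55.7, 57.1 and 56.0 CPM in GSK (replicates A, B and C). Every GSK library was below every DMSO library, although the drug blocks the enzyme and not its gene, so this level does not measure inhibition. Of 14 PRC2 subunits and cofactors tested, 10 were lower, 3 were higher and 1 did not pass the test (adjusted p under 0.05 by edgeR). Over all 14189 tested genes 40% were called higher and 35.7% lower. All 14 of the list stood at 10 CPM or more in DMSO, and of the 9507 genes at that level 49.6% were lower. SUZ12, a core subunit, fell by 1.01 on the log2 scale (SE 0.0728, adjusted p = 1.45e-10). JARID2, which helps to recruit PRC2, rose by 1.17, and EZH1, the paralog that can also catalyse the mark, rose by 0.73. The median of the list was -0.49, beside 0.058 over all 14189 genes tested. Of 20 demethylases of the mark and subunits of PRC1, the complex that reads it, 9 were higher, 6 were lower and 5 did not pass the test, with a median of -0.027. PHC1 and PCGF5 led the rises at 1.74 and 1.12, and PCGF6 and CBX2 led the falls at -1.30 and -0.98. PHC1 overlaps M6PR, so its counts are uncertain. Library totals as the scaling gave 10 higher and 3 lower in the latter list, and no filter gave 7 and 10.

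Silent genes were defined as those with a mean under 0.1 CPM in DMSO, and a silent gene was said to turn on when every GSK library held at least 1 CPM. Of 23228 gene symbols 7854 were silent, and 5029 of these had 0 counts in all DMSO libraries. In GSK 6616 silent genes (84.2%) stayed under 0.1 CPM, 1187 (15.1%) had a mean of 0.1 to 1 CPM, 23 had a mean of at least 1 CPM but not in every library, and 28 (0.357%) turned on. In the opposite direction 6824 genes were silent in GSK, and 0 of them held 1 CPM or more in every DMSO library. Of the genes silent in GSK 208 (3.05%) had a DMSO mean of 0.1 to 1 CPM, and 0 had a higher mean. The same 7854 genes reached a mean of 0.1 to 1 CPM in GDC in 492 cases (6.26%), and 0 turned on there. In COMBO 38 of the 7854 held at least 1 CPM in every library. In bulk libraries, more cells with a transcript and more transcript per cell cannot be told apart.

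The count of 28 depends on where the lines are drawn. It was 6 with silence set under 0.05 CPM, 77 under 0.2 CPM, 90 with the on level at 0.5 CPM and 9 at 2 CPM, and 13 when both lines were set on CPM per kb of exon. In each of these settings 0 genes went the other way. Just outside the rule, DLX5 and HLA-DRA each had 0.989 CPM in their lowest GSK library, and PCDHGA2 had a DMSO mean of 0.102 CPM. Just inside it, MUM1L1 and ARHGAP25 had 1.02 and 1.03 CPM in their lowest GSK library, and GBP3 had a DMSO mean of 0.0992 CPM.

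Promoters of the gene with the highest level among those that turned on, SEMG2, and of MRAP2, another of them, are shown because they differ in CpG content, the sequence feature in which the silent and the expressed genes below also differ. Each is the stretch of 250 bases before the RefSeq start, written 5′ to 3′ on the gene's strand, with CpG dinucleotides in capitals (RefSeq promoters, GRCh38.p14).
SEMG2 (chr20:45221123-45221372, plus strand): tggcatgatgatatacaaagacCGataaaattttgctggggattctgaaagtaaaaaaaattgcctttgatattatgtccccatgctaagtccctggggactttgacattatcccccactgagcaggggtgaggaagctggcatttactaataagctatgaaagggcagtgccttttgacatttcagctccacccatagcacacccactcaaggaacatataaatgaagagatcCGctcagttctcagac
MRAP2 (chr6:84033522-84033771, plus strand): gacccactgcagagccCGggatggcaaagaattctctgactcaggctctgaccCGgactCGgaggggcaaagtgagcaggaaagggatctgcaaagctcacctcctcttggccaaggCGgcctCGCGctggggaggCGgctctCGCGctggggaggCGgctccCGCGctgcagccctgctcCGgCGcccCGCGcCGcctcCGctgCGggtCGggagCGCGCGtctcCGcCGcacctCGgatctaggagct
The SEMG2 window holds 2 CpG and the MRAP2 window 26. The ratio of observed to expected CpG was 0.172 in the former and 0.839 in the latter.

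All 28 genes that turned on are protein coding, and they were ranked by the GSK level per kb of exon. The contrast between DMSO and GSK chose them, so their ratios are given as a description. SEMG2 (chromosome 20, 45221373 to 45224458) encodes semenogelin, a protein of the seminal fluid coagulum. It had 0, 1 and 3 counts in the DMSO libraries and 151, 165 and 168 in the GSK libraries, which is 16.6, 13.04 and 14.2 CPM in GSK. PCDHB5, a clustered protocadherin, had 0, 0.0553 and 0.168 CPM in DMSO and 5.38, 3.95 and 4.66 CPM in GSK. GAB3, a scaffold protein of receptor signalling on the X chromosome, had 0, 0.0553 and 0.120 CPM in DMSO and 5.604, 7.03 and 7.46 CPM in GSK. In these genes, as the rule requires, all GSK libraries lay above all DMSO libraries.

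GSTA2, a glutathione transferase with close paralogs, had 1.53 ± 0.232 CPM in GSK (SD, n = 3). Its ratio of pooled counts to the 8 DMSO counts was 13.4 (exact 95% counting interval 6.32 to 32.7). ENTPD8, a nucleotidase of the cell surface, went from 3 pooled counts to 99, a ratio of 68.0 (22.6 to 335), and overlaps NOXA1, so its counts are uncertain. P2RX2, a channel opened by ATP, also went from 3 pooled counts, to 68, a ratio of 46.7 (15.3 to 232). OR51E1, an olfactory receptor known to be expressed in the prostate, was at 3.52, 4.74 and 2.29 CPM in GSK, and its ratio was 49.05 (20.4 to 154). MRAP2, an accessory protein of melanocortin receptors, had 1 DMSO count and 43 GSK counts, a ratio of 88.6 with an interval of 15.1 to 3581. GBP3, a guanylate-binding protein, and ATP2A3, a calcium pump of the endoplasmic reticulum, had ratios of 19.2 (9.66 to 43.5) and 39.2 (18.5 to 99.3). These intervals cover counting error only.

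**Figure D1:**
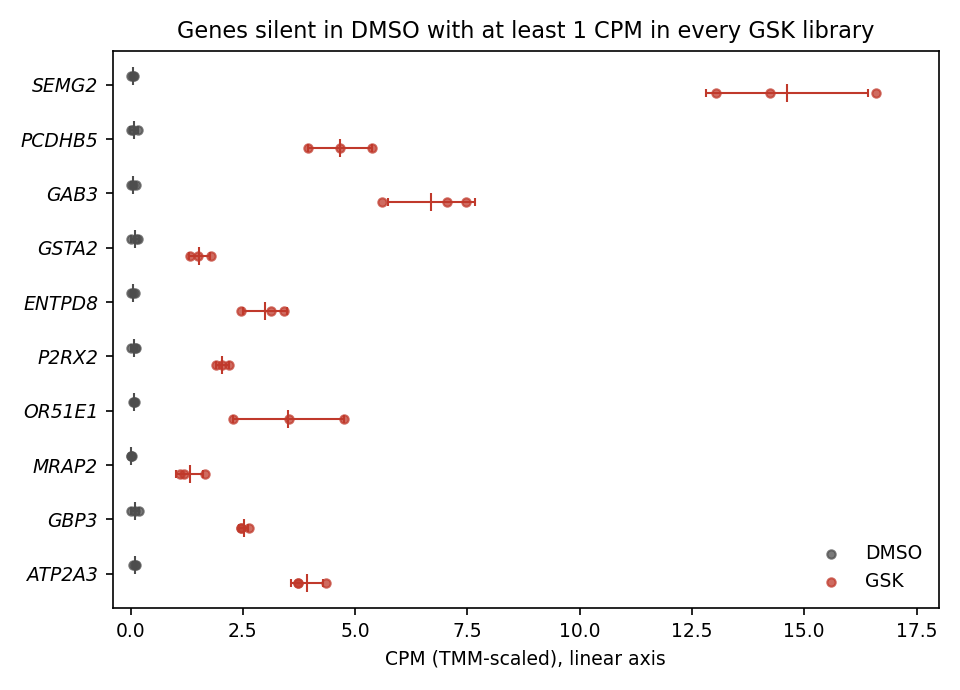
Level in CPM (linear axis) of the 10 turned-on genes with the highest GSK level per kb of exon, in the 3 DMSO and 3 GSK libraries. Points are libraries, and ticks with bars are the mean and SD. DMSO libraries lie at 0 to 0.192 CPM, while SEMG2 stands at 13.04 to 16.6 CPM and MRAP2 at 1.102 to 1.65 CPM in GSK.

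Among the other genes that turned on, GLYATL3 was the only 1 of the 28 with 0 counts in all DMSO libraries. It had 11, 14 and 16 counts in GSK, at least 28.2-fold higher when DMSO is set at 3 counts over the group. Guidance and adhesion genes were among them: SEMA3E, SLIT3, PCDHB13 and PCDHGA7 stood at means of 1.66, 2.19, 1.69 and 1.30 CPM in GSK. OPRK1, the kappa opioid receptor, had 1.65, 4.19 and 3.05 CPM in GSK, the lowest value in replicate A. ANXA1, a phospholipid-binding protein of inflammation, had 1.54, 2.37 and 1.78 CPM. PCDHGA7 and ADAM19 share exon positions with other genes, so their counts are uncertain.

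The 28 genes were next examined in 6 libraries that played no part in choosing them, COMBO against GDC, which also differ by GSK126. All 28 were higher there (edgeR, adjusted p under 0.05), compared with 37.9% of all tested genes called higher. That share covers all levels, while these genes stood low in DMSO and GDC, where a call of lower was hardly possible. Genes this low were tested only where some arm gave them counts. Of all tested genes under 0.1 CPM in DMSO 132 of 133 were higher in GSK against DMSO. The 28 calls are therefore no evidence of their own. The smallest change was that of PABPC5, at 0.93 on the log2 scale (adjusted p = 0.0224), and the greatest that of OPRK1, at 5.67. Their median was 3.51 in COMBO against GDC and 5.06 in GSK against DMSO, beside 0.018 and 0.058 over all tested genes. In COMBO 20 of the 28 held at least 1 CPM in every library, and 27 stayed under 1 CPM in every GDC library. The exception was ATP2A3, whose highest GDC library held 1.01 CPM.

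Semenogelin lies in a stretch of chromosome 20 with many genes for secreted proteins and protease inhibitors, and its neighbours were examined after the values of SEMG2 and SLPI were seen. Within 200 kb of SEMG2 there were 15 other symbols, of which 7 were tested. Of these 5 were higher, SLPI among them, 1 was lower and 1 did not pass the test, where 40% of all tested genes were called higher and 35.7% lower. SEMG1, the paralog of SEMG2 and therefore open to shared reads, had 0.211, 0.498 and 0.313 CPM in DMSO and 26.5, 24.9 and 24.0 CPM in GSK. SLPI, an inhibitor of leukocyte proteases, starts 27.8 kb beyond SEMG2. It stood at 11.3, 14.1 and 13.4 CPM in DMSO and at 256, 247 and 263 CPM in GSK, and no expressed gene rose more. SDC4, a heparan sulfate proteoglycan of the cell surface, went from 76.3 ± 0.724 to 225 ± 6.38 CPM (SD, n = 3). WFDC12, which belongs to the family of SLPI, had 0 counts in DMSO and 29 in GSK, and PI3, also of that family, had 3 and 3. STK4 at the edge of the window was lower, by 0.31 on the log2 scale (adjusted p = 0.00141), and SYS1 did not pass the test (0.096, adjusted p = 0.195).

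Gene families were described by symbol. Protocadherins are adhesion molecules that give neurons their identity, and their alpha, beta and gamma genes lie side by side on chromosome 5. Of 70 protocadherin symbols 41 were silent in DMSO. In GSK 29 of the 41 (70.7%) had a mean of 0.1 CPM or more, compared with 15.8% of all silent genes, and 7 of the 41 did so in GDC. Of the 33 protocadherins tested 28 were higher and 3 were lower, where 40% of all tested genes were higher and 35.7% lower. Silent genes were tested only where some arm gave them counts, so the calls among them are no evidence of their own.

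Beta protocadherins hold their coding sequence in a single exon. There were 19 beta symbols, 3 of them not annotated as protein coding, and their summed level was 1.16, 0.774 and 1.18 CPM in DMSO and 19.1, 18.4 and 20.8 CPM in GSK. In 18 of the 19 the GSK mean was above the DMSO mean, as was the GDC mean in 15. In 14 every GSK library was above every DMSO library. The shares over all genes at such levels were not counted, so these counts are a description. Few counts suffice for separation: PCDHB12 had 0 pooled counts in DMSO and 6 in GSK. All 8 that were tested were higher, by at least 2-fold, but genes this low were tested only where some arm gave them counts. Of all tested genes under 0.1 CPM in DMSO 132 of 133 were higher, so these 8 calls are no evidence of their own. PCDHB2 was at 0.211, 0.111 and 0.385 CPM in DMSO and 5.82, 5.45 and 6.61 CPM in GSK, or 4.34 higher on the log2 scale (SE 0.271). PCDHB17 was listed at 0 in all 6 libraries. In GDC the summed beta level was 1.59 to 2.28 CPM, and in COMBO it was 25.1 to 27.9 CPM.

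**Figure D2:**
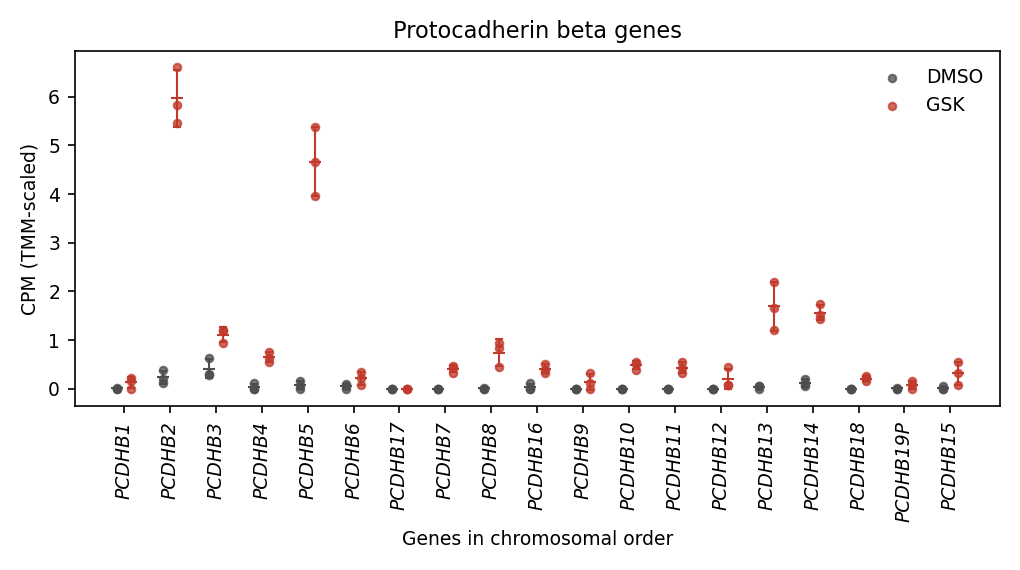
Level in CPM of the 19 protocadherin beta symbols in chromosomal order, in the 3 DMSO (grey) and 3 GSK (red) libraries. Points are libraries, and ticks with bars are the mean and SD. PCDHB2 and PCDHB5 stand at 3.95 to 6.61 CPM in GSK, PCDHB13 and PCDHB14 at 1.21 to 2.20 CPM, and the DMSO libraries lie at 0 to 0.632 CPM.

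The gamma genes, which share exons and are therefore uncertain one by one, summed to 11.6, 12.2 and 13.7 CPM in DMSO and 38.9, 37.9 and 38.8 CPM in GSK. Of 18 gamma genes tested 16 were higher, 0 were lower and 2 did not pass the test, with a median of 1.88. The limit of the filter given for the beta genes holds for the low gamma genes too. PCDHGC3, the gamma gene with the highest level in DMSO, went from 4.74, 5.09 and 5.41 to 11.98, 11.1 and 12.3 CPM. The alpha genes stayed low, at 0.387 to 0.674 CPM in sum in DMSO and 2.80 to 3.85 CPM in GSK. None of the 15 alpha symbols turned on by the rule.

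Collagens, which build the extracellular matrix, also moved mostly one way. Of 25 tested, 24 were higher and 0 were lower, 18 of them by at least 2-fold, with a median of 1.51. Over all tested genes 40% were higher, 16% by at least 2-fold, and 35.7% were lower. Semaphorins, which guide axons, gave 15 higher and 0 lower of 17 tested. Glutamate receptors gave 11 higher and 0 lower of 12, and cytochrome P450 genes 21 higher and 4 lower of 29. These counts changed by at most 2 under library totals, DESeq2 size factors or no filter. Of 43 collagen, 28 glutamate receptor and 55 cytochrome P450 symbols 17, 16 and 24 were silent in DMSO. Low members were tested only where some arm gave them counts, so the calls are partly set by the filter. Zinc finger genes were divided, with 139 higher and 141 lower of 439 under TMM, but 210 and 95 under library totals. Of 370 olfactory receptor symbols that were silent in DMSO 12 (3.24%) reached 0.1 CPM in GSK, and of 87 silent keratin-associated proteins 0 did, beside the 15.8% over all silent genes. Small nucleolar RNAs gave 1 higher and 16 lower of 48, in libraries selected for polyadenylated RNA.

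HOX genes and other developmental factors are the best-known genes under PRC2. Of 24 HOX genes tested 14 were higher, 4 were lower and 6 did not pass the test, and their median was 0.49. Over all tested genes 40% were higher and 35.7% lower, with a median of 0.058. Of the 39 HOX symbols only 7 stood at 10 CPM or more in DMSO, so most of those tested were low. All tested genes at 1 to 10 CPM were higher in 55.1%, with a median of 0.49. At 0.1 to 1 CPM 69.0% were higher, with a median of 1.43. How far HOX genes depart from genes at their levels was not tested. HOXC4 went from 2.84, 3.48 and 4.16 CPM to 19.6, 24.98 and 20.6 CPM, but it overlaps HOXC6. HOXC10 rose by 2.14 on the log2 scale, from under 0.3 CPM. HOXA4 and HOXA5 fell, with log2 fold changes of -0.58 and -0.56. Of 13 HOX genes that were silent in DMSO, 1 reached 0.1 CPM in GSK. Of 151 other developmental factors 73 were silent, and 18 of those reached 0.1 CPM, while 0 turned on. Of 68 tested 24 were higher, 17 were lower and 27 did not pass, with a median of 0.18, and neither share exceeds that over all tested genes. The pooled counts of DLX5, a homeobox factor of bone and limb, went from 5 to 46, and those of FOXD3, a factor of the neural crest, from 6 to 36. DLX1 went the other way, from 18.52, 18.3 and 20.3 CPM to 6.26, 4.43 and 3.898 CPM.

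Runs of neighbouring genes were listed among 12942 tested protein-coding genes placed on the genome. Of these 914 (7.06%) stood under 1 CPM in DMSO and rose by at least 2-fold, and 61 of them lay in 17 runs of 3 or more in a row. The longest run held 9 genes, PCDHA1 and 8 beta protocadherins, over chromosome 5, 140786136 to 141227759. Genes that were not tested were skipped in forming runs, among them most alpha genes and 7 protein-coding beta genes in this stretch, and low genes were tested only where some arm gave them counts, so what lies in a row depends on the filter. On chromosome 11 (110577042 to 111308735) the run held ARHGAP20, C11orf53 and C11orf93. C11orf53 and C11orf93 are now named POU2AF2 and POU2AF3 and encode coactivators of the factor POU2F3. C11orf53 had 0 counts in DMSO and 43 in GSK, at least 29.5-fold higher against 3 counts over the group. C11orf93 had 0.211, 0.608 and 0.337 CPM in DMSO and 19.0, 16.4 and 19.6 CPM in GSK, and it overlaps C11orf92. On chromosome 10 the run held AKR1C1, AKR1C2 and AKR1C3, reductases of steroid hormones, whose near-identical sequences can share reads. Their log2 fold changes were 4.07, 3.29 and 4.75. Another run on that chromosome held IFIT2, IFIT3 and IFIT1, antiviral genes induced by interferon, at 2.09, 1.91 and 1.31.

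The direction of change was then related to the level in DMSO. Genes with a DMSO mean of 0.1 to 1 CPM were higher in 69.0% and lower in 1.62% of 1481 tested, but 1318 others at that level were not tested, and the filter let members in through the arms where they were high. Those at 1 to 10 CPM were higher in 55.1% and lower in 10.9% of 3068. Those at 10 to 100 CPM were higher in 34.1% and lower in 43.0% of 6672, and those at 100 CPM or more were higher in 19.6% and lower in 65.2% of 2835. Low levels rest on fewer counts, so small changes pass less often there. At 1 to 10 CPM 1045 genes did not pass the test, and at 100 CPM or more 432 did not. The part of this in the shares was not tested. Below 0.1 CPM 132 of 133 tested genes were higher, but the other 7721 were not tested, and those that were had to be high in some arm. A level measured in DMSO enters both the bin and the change, so bins were also set from the GDC libraries, which the contrast does not use. The shares lower were then 2.95%, 11.4%, 43.7% and 60.5% in the same order from 0.1 CPM up, and the shares higher were 67.3%, 54.5%, 34.1% and 23.3%. With library totals the shares lower were 1.41%, 7.63%, 33.1% and 54.5%, and in the bin of 10 to 100 CPM more genes were then higher (44.2%) than lower.

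**Figure D3:**
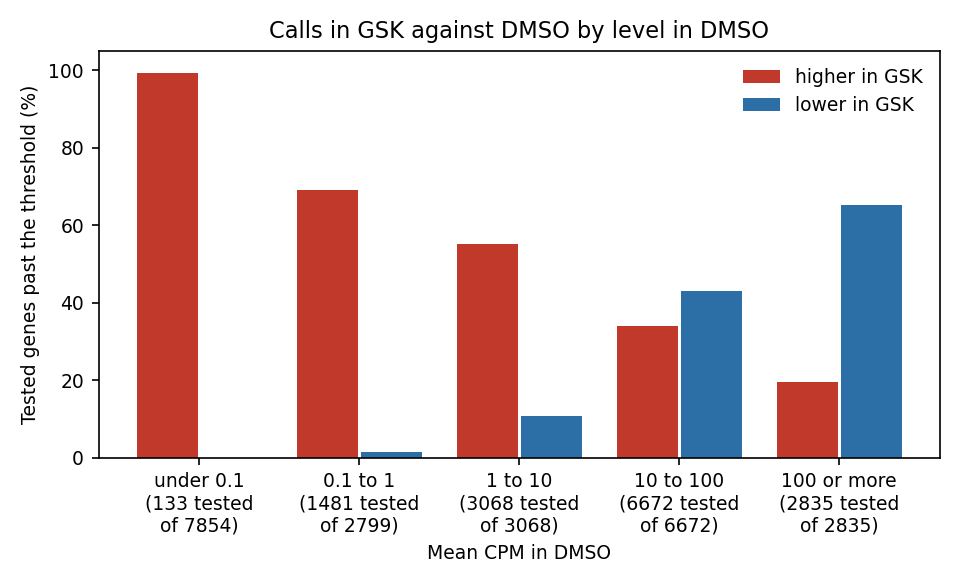
Percent of tested genes called higher (red) or lower (blue) in GSK against DMSO, by mean CPM in DMSO. The share lower goes from 10.9% at 1 to 10 CPM, where all genes were tested, to 65.2% at 100 CPM or more, and the number of genes tested stands under each bin. Low levels rest on fewer counts, so small changes pass less often there.

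Genes at 10 CPM or more in DMSO were called expressed, and all 9507 of them were tested. Of these 4715 (49.6%) were lower, 2832 were higher and 1960 did not pass the test. With a change of at least 2-fold 713 (7.50%) fell and 374 (3.93%) rose, whereas among all tested genes 5.86% fell and 16% rose by that much. Falls were limited in size: 17 expressed genes fell by at least 4-fold, and 35 rose by as much. Under library totals, which shifted the median of all genes by 0.15, 440 expressed genes fell and 532 rose by at least 2-fold, so the order of these counts depends on the scaling. Higher calls made up 52.8% of all calls under TMM and 64.0% under library totals.

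In COMBO against GDC 708 of the 713 fallen genes were lower and 1 was higher, beside 38% of all tested genes called lower there. All 374 that rose were higher there, beside 37.9% of all tested genes called higher. Both shares cover all levels, and the shares over expressed genes alone were not counted in COMBO against GDC. The medians were -1.35 for the fallen and 1.09 for the risen genes, compared with -1.22 and 1.27 in GSK against DMSO. The gene that was higher in COMBO than in GDC was CHAC1.

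The 10 expressed genes with the greatest falls, each with all GSK libraries below all DMSO libraries, had log2 fold changes of -2.72 to -2.22. IGF1, a secreted growth factor that signals to PI3K, had 149, 138 and 158 CPM in DMSO and 25.7, 20.1 and 22.4 CPM in GSK (log2 fold change -2.72, SE 0.0781, adjusted p = 2.37e-16). PMAIP1, which encodes the proapoptotic protein NOXA, had 15.1, 13.5 and 15.0 CPM in DMSO and 3.19, 2.77 and 2.29 CPM in GSK. APLN, the ligand of the apelin receptor, went from 41.0 ± 2.65 to 8.45 ± 0.750 CPM (SD, n = 3). C2orf72 went from 19.3 ± 1.64 to 4.10 ± 0.396 CPM.

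The list also held CHAC1, SLC7A11 and PSAT1. CHAC1, which degrades glutathione, went from 10.0, 11.1 and 11.6 CPM to 1.54, 2.85 and 2.03 CPM. SLC7A11, the cystine importer, had 238, 188 and 210 CPM in DMSO and 43.3, 40.2 and 46.4 CPM in GSK. PSAT1, an enzyme of serine synthesis with 4 named pseudogenes, had 465, 477 and 465 CPM in DMSO and 104.5, 100.1 and 97.6 CPM in GSK (log2 fold change -2.22, SE 0.0468, adjusted p = 2.20e-18). In COMBO against GDC the log2 fold changes of these genes were 0.78 for CHAC1, -0.27 for SLC7A11 and -1.55 for PSAT1.

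The remaining genes of the 10 were CDC25A, ZNF367 and CDCA7. CDC25A, the phosphatase that activates cyclin-dependent kinases, had 78.9, 78.0 and 76.4 CPM in DMSO and 15.9, 14.9 and 15.0 CPM in GSK. ZNF367, a zinc finger factor, went from 62.4, 59.3 and 63.2 CPM to 13.2, 13.3 and 11.8 CPM, and CDCA7, a cell division gene, from 36.4, 34.0 and 39.3 CPM to 9.23, 6.48 and 8.05 CPM. Replicates were close in these genes, and the groups lay apart because the rule that chose the genes required it.

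**Figure D4:**
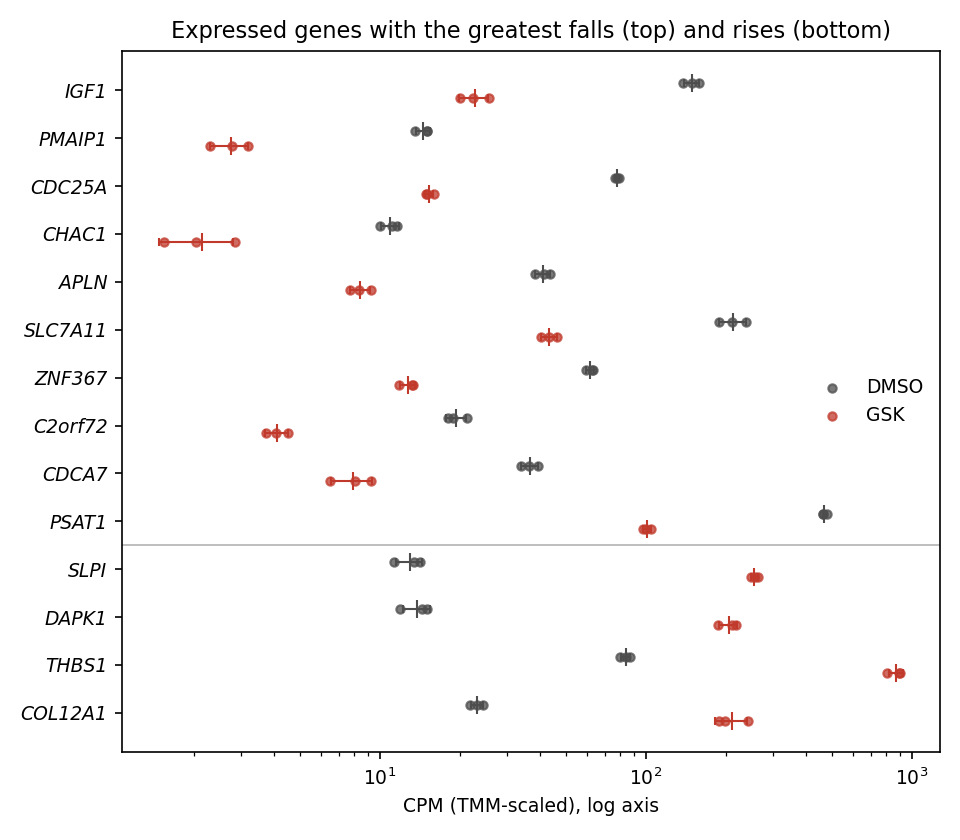
Level in CPM (log axis) of the 10 expressed genes with the greatest falls, above the line, and 4 with great rises, below it, in 3 DMSO and 3 GSK libraries. Points are libraries, and ticks with bars are the mean and SD. PSAT1 goes from 465 to 477 CPM in DMSO down to 97.6 to 104.5 CPM in GSK, and SLPI goes from 11.3 to 14.1 CPM up to 247 to 263 CPM. As the rule requires, the groups do not overlap in any of the 14 genes.

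The promoters of CDC25A and ZNF367 are shown because they hold a motif of the E2F type, the factors that drive S-phase genes. The motifs searched were TTTCCCGC and TTTGGCGC on both strands, so that GCGGGAAA and GCGCCAAA also count. Each stretch is the 250 bases before the RefSeq start (GRCh38.p14), 5′ to 3′ on the gene's strand, with the motif in capitals.
CDC25A (chr3:48188418-48188667, minus strand): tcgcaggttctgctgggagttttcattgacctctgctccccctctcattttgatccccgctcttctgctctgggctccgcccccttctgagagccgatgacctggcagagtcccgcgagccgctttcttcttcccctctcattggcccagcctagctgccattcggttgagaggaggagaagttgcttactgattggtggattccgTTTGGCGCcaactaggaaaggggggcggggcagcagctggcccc
ZNF367 (chr9:96418371-96418620, minus strand): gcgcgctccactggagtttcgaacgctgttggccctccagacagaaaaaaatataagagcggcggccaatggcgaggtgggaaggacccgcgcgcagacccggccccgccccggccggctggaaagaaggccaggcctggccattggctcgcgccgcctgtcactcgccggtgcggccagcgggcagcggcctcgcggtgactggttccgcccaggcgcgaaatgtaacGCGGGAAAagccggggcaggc
The motif begins 44 bases before the start in CDC25A and 21 bases before it in ZNF367. Among the other genes named for the greatest falls, the same stretch of CDCA7 also held such a motif. The stretches of IGF1, PMAIP1, CHAC1, APLN, C2orf72 and PSAT1 did not hold it, and SLC7A11 had no RefSeq stretch. CDC25A and ZNF367 therefore do not stand for all of these genes. A match is a description of the sequence and not a measured binding site.

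Promoter sequence was compared between classes of protein-coding genes, in windows of 300 bases around the GENCODE 44 start (250 before and 50 after). The E2F-type motifs were in 63 of 696 expressed genes that fell by 2-fold (9.05%), in 2.45% of those that rose, in 3.72% of expressed genes that did not pass the test and in 3.07% of all 18708 genes with a window. The motif TTTGAA, on both strands, is the core of the cell cycle homology region found in mitotic genes. It was in 19.8% of the fallen, 4.89% of the risen, 6.53% of the expressed genes that did not pass and 11.1% of all genes. Silent genes also held it often, with 17.6% of those that stayed silent in GSK. It was in 14.8% of those that came up to at least 0.1 CPM without turning on and in 14.3% of the 28 that turned on. A high share of TTTGAA is therefore not particular to the fallen genes. A window can hold both kinds of motif, and the 2 were counted apart.

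CpG content differed between silent and expressed genes. A ratio of observed to expected CpG above 0.6 was found in 95.1% of the fallen and 94.1% of the expressed genes that did not pass, in 77.4% of the risen, and in 69.1% of all genes. It was found in 46.4% of the 28 genes that turned on, in 39.1% of the 986 silent protein-coding genes that came up to at least 0.1 CPM without turning on and in 28.1% of the 3996 that stayed silent. Silent genes that moved also had longer exons, with medians of 4757 and 4172 bases against 2549 in those that stayed, and a longer gene gathers more counts at the same level per length.

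Expressed genes with the greatest rises included SLPI, DAPK1, THBS1 and COL12A1. DAPK1, a kinase that promotes cell death, had 14.4, 11.9 and 15.0 CPM in DMSO and 187, 217 and 210 CPM in GSK. THBS1, a matrix glycoprotein that inhibits angiogenesis, went from 80.1, 87.1 and 84.1 CPM to 893, 808 and 905 CPM, and overlaps FSIP1. COL12A1, a fibril-associated collagen, went from 21.9, 24.3 and 23.1 CPM to 199, 189 and 243 CPM. The log2 fold change of SLPI was 4.27 (SE 0.0649, adjusted p = 1.76e-20), or 19.3-fold. It was 3.88 for DAPK1, 3.37 for THBS1 and 3.18 for COL12A1.

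Gene lists give the wider setting of these falls and rises, each read beside 40% higher, 35.7% lower and a median of 0.058 over all tested genes. All 46 genes of replication licensing and the fork were lower, 35 of them by at least 2-fold, with a median of -1.28 and a range of -2.19 to -0.17. MCM10, which helps to fire origins, had 142, 136 and 134 CPM in DMSO and 31.5, 27.5 and 31.2 CPM in GSK. ORC1, a subunit of the origin recognition complex, fell by 1.90 on the log2 scale. Under library totals 45 of the 46 were lower. All 46 genes of mitosis were lower, 28 by at least 2-fold, with a median of -1.08, and MAD2L1 of the spindle checkpoint and the condensin subunit NCAPH led at -1.86 and -1.56.

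The 24 E2F factors, G1/S cyclins and CDK inhibitors were mixed, with 6 higher, 14 lower and 4 that did not pass. CDC25A and E2F2 fell most, and E2F2 had 22.1, 29.1 and 26.4 CPM in DMSO and 7.36, 5.38 and 6.36 CPM in GSK. CCND2, a D-type cyclin, rose from 0.526, 0.498 and 0.602 CPM to 8.79, 11.5 and 9.58 CPM. CDKN1C, which encodes the inhibitor p57, rose from 2.32, 2.49 and 1.64 CPM to 16.9, 18.7 and 15.5 CPM. Of 33 genes of ribosome biogenesis and MYC partners 31 were lower, 19 by at least 2-fold, 1 was higher and 1 did not pass, with a median of -1.04. TCOF1 and LYAR of the nucleolus fell (-1.96 and -1.94), and MXD4, an antagonist of MYC, rose by 1.08 but overlaps MIR4800.

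The next lists moved mostly upwards, but most of their members stood under 10 CPM in DMSO. Low genes were tested only where some arm gave them counts. Over all tested genes at 0.1 to 1 CPM in DMSO 69.0% were higher, with a median of 1.43. At 1 to 10 CPM 55.1% were higher, with a median of 0.49. How far the lists go beyond these shares was not tested. Of 48 interferon-stimulated genes 41 were tested, and of these 33 were higher, 4 were lower and 4 did not pass, with a median of 1.06. SAMD9 went from 0.105, 0.332 and 0.144 CPM to 4.18, 2.37 and 3.98 CPM, XAF1 went from 5 to 25 pooled counts, and USP18 and IFIH1 fell (-0.63 and -0.60). Of 62 genes of the extracellular matrix and adhesion 41 were tested, and of these 34 were higher and 1 was lower, with a median of 0.90. COL17A1 and COL4A4 rose by 3.44 and 3.28, and the fall of ITGA2 (-0.27) was not past the threshold under library totals. Of 83 secreted growth factors and WNT inhibitors 47 were silent in DMSO and 35 were tested, and of these 25 were higher and 5 were lower, with a median of 1.87. BTC, a ligand of the EGF receptor, went from 2 to 30 pooled counts, a ratio of 30.9 (7.84 to 267). TGFB1, which overlaps HNRNPUL1, went from 1 to 16, a ratio of 33.0 (5.12 to 1383), and WNT10B fell by 1.31. Of 35 neural and neuroendocrine genes 13 were silent in DMSO and 15 were tested, and of these 11 were higher and 1 was lower, with a median of 0.81. SYT1, of synaptic vesicles, had 0.211, 0.387 and 0.433 CPM in DMSO and 4.62, 2.85 and 3.14 CPM in GSK, and RBFOX3 went from 9 to 26 pooled counts. DLL3 fell by 0.38, which was not past the threshold under library totals.

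Of 29 genes of the androgen receptor programme 27 were tested, and of these 16 were higher, 8 were lower and 3 did not pass, with a median of 0.37. MAF rose from 0.842, 0.442 and 0.457 CPM to 7.91, 7.27 and 7.63 CPM, and ACPP, prostatic acid phosphatase, from 26.0, 28.5 and 29.7 CPM to 226, 251 and 253 CPM. NCAPD3, which overlaps JAM3 and VPS26B, and UGT2B15, which inactivates androgens and has close paralogs, fell (-1.35 and -1.30). Of 14 genes known from earlier work as repressed by EZH2 13 were tested, and of these 8 were higher, 2 were lower and 3 did not pass, with a median of 0.62. Only 7 of the 14 stood at 10 CPM or more in DMSO. Over all tested genes 55.1% at 1 to 10 CPM and 69.0% at 0.1 to 1 CPM were higher. How far this list goes beyond such shares was not tested. CDKN1C and BMF, a proapoptotic gene, led at 3.10 and 2.74. The study that made these libraries reported the rise of BMF from them, so BMF adds no independent case. MSMB (-0.81) and PEBP1 (-0.19) fell, the latter not past the threshold under library totals. Germline and cancer-testis genes showed no common direction, with 5 higher, 7 lower and 6 that did not pass of 18 tested out of 46. SYCP2 of the meiotic chromosome axis and MAGEA10 rose by 1.48 and 1.28, and SYCP3, which overlaps CHPT1, and ACTL8 fell (-2.25 and -1.25).

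**Figure D5:**
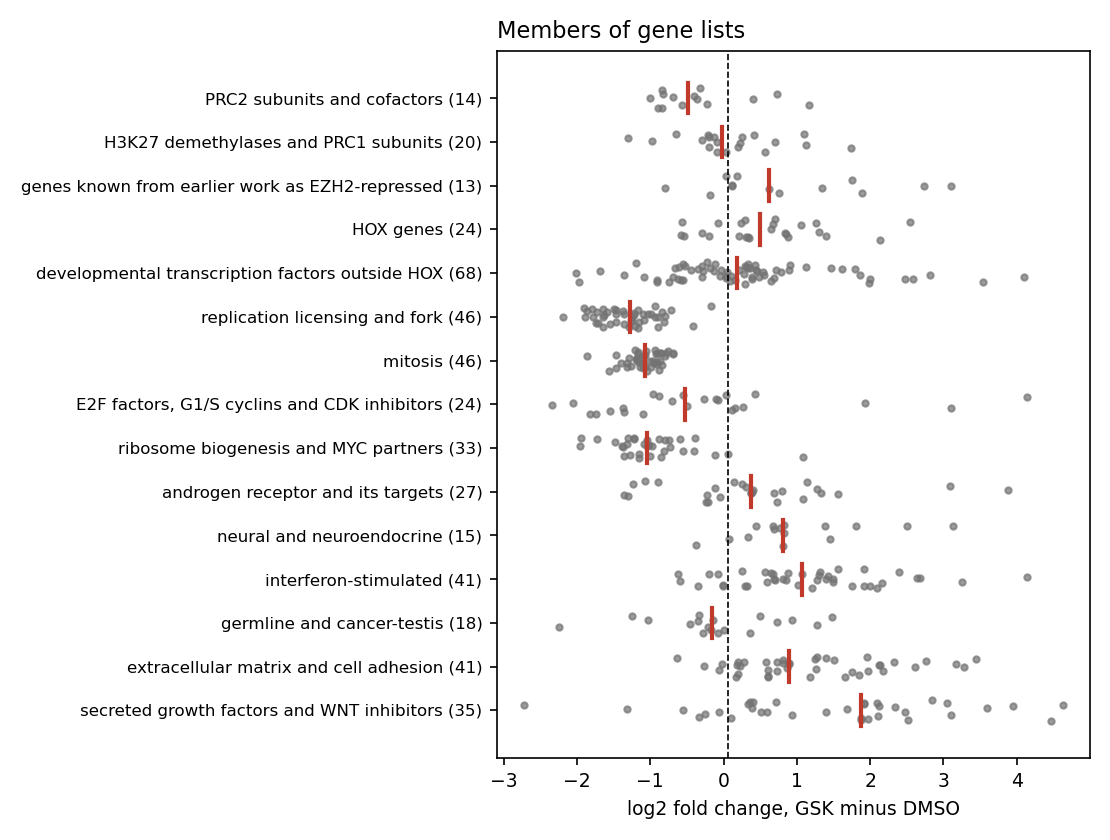
log2 fold change, GSK minus DMSO, of the tested members of 15 gene lists, with the number tested in brackets. Grey points are genes, red ticks are list medians and the dashed line is the median of all tested genes (0.058). All replication and mitosis genes lie below 0, and the medians are highest for secreted growth factors (1.87) and interferon-stimulated genes (1.06).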

How the data were processed

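RNA-seq counts of 12 libraries of C4.2B cells were used. The authors sequenced polyadenylated RNA on a NextSeq instrument, aligned reads to hg38 with STAR and counted them per gene symbol with HTSeq, and the deposited values are raw counts. Versions, annotation and strand setting were not given in the sources used here, so overlapping genes are uncertain. The 5 summary lines per library (reads outside genes, ambiguous and other reads) entered neither library sizes nor tests, and there were 0 columns mapped to no library. A deposited normalized table was not used.

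Counts were tested with edgeR 4.0.16 (R 4.3.3, glmQLFit and glmQLFTest, TMM, filterByExpr, 14189 genes, all 12 libraries, no covariate, two-sided, Benjamini-Hochberg). The common biological coefficient of variation was 0.0499. CPM per library are TMM-scaled. The script was tested on simulated data. A gene was named as 1 of the 10 turned-on genes with the highest GSK level per kb, of the 10 greatest falls or of the 5 greatest rises among genes at 10 CPM or more without overlap between groups, as 1 of the 2 extremes each way of a list, or as EZH2, or as a member of a family, run or neighbourhood described. Of these, 1 gene is not reported here. The neighbourhood of SEMG2 and the turned-on genes beyond the 10 were chosen after their values were seen. Members and lists were chosen with earlier results of these data known. GENCODE 44 on hg38 gave coordinates for 21467 symbols (92.4%), and printed promoters come from RefSeq, which matched 15399 (66.3%). Because of that share, promoter classes were compared at GENCODE starts and not, as planned, at RefSeq starts. Within each arm replicates differed beyond counting noise, so each library counted as 1 replicate. Alternatives were DESeq2 1.42.0, edgeR with its size factors or with library totals, omission of the filter, a filter at a mean of 1 CPM, the 2 arms alone, a replicate block, other thresholds and fits without each library.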

Additional observations from a re-analysis of the deposited data

Results flagged for a closer look

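The effect of GSK126 was measured without GDC-0941 (GSK minus DMSO) and with it (COMBO minus GDC), and the difference between both effects was tested as an interaction (edgeR, adjusted p under 0.05). Over all 14189 genes 21.4% passed. Of 24 genes named for turning on, falls and rises 15 passed, and their differences on the log2 scale, with minus without, are given here. GSK minus DMSO chose these genes and also enters the difference. That count and a smaller effect with GDC-0941 are therefore partly set by the choice. Among genes that turned on the rise was smaller with GDC-0941 for SEMG2 (-2.83), P2RX2 (-2.54) and ATP2A3 (-2.39). These stood at means of 0.0425, 0.0719 and 0.0936 CPM in DMSO and at 0.310, 0.380 and 0.612 CPM in GDC. Their DMSO values rest on 4, 3 and 7 pooled counts. Among genes that fell the fall was greater with GDC-0941 for ZNF367 (-1.48), APLN (-1.04), CDCA7 (-0.67), CDC25A (-0.554) and IGF1 (-0.473). It was smaller for SLC7A11 (2.02) and PSAT1 (0.667), and CHAC1 changed direction (3.11), with means of 10.9 CPM in DMSO, 2.14 in GSK, 2.74 in GDC and 4.73 in COMBO. Among genes that rose the rise was smaller with GDC-0941 for DAPK1 (-0.727), COL12A1 (-0.441), SLPI (-0.402) and THBS1 (-0.361).

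Reads outside genes, which no comparison used, made up 18.8% ± 0.264 of all reads in GSK (SD, n = 3) and 13.7% to 14.6% in DMSO.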

How the results depend on the processing

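The 75 genes named by rank, as EZH2 or as extremes of a list (members of families, runs and the neighbourhood of SEMG2 were not followed one by one) kept their direction in every alternative that gave a value, and 958 of 961 such values stayed on the same side of the threshold. The 3 that did not were PEBP1 (-0.035), DLL3 (-0.23) and ITGA2 (-0.11) under library totals. Expressed genes that fell numbered 440 under library totals and 703 to 836 in fits without 1 library, and under no filter 5579 genes were higher and 5680 lower. A threshold of 2-fold left 2272 genes higher and 832 lower. Genes that turned on numbered 6, 77, 90, 9 and 13 under the other thresholds given above, and 21 to 36 without 1 library. With a mean of at least 1 CPM as the filter 17 of them were higher in COMBO against GDC, since the filter removed the other genes from the test. With bins set from GDC 81 genes under 0.1 CPM were higher, since fewer were tested, and 40 at 0.1 to 1 CPM were lower, a difference whose cause was not tested. Bins under library totals were added after the data were seen. Replicate numbers did not pair the samples: deviations of DMSO and GSK libraries with the same letter correlated at -0.037, 0.043 and -0.071, and a replicate block gave 5672 higher and 5064 lower. Depth limits the silent genes most: a count of 0 allows 3 counts, or 0.0722 to 0.316 CPM in a DMSO library.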
